A study of Rattus norvegicus with 9 samples.

Results

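Transcript levels of 6 injury-related transcription factor genes were examined in rat hypothalamus: Atf3, Jun, Junb, Fos, Fosl1 and Egr1. They were chosen by their Ensembl gene identifiers, 6 of the 34784 rows of the count table, and all 6 passed the filter on low counts that left 17345 genes for testing. The choice was made with earlier results of these data known. The pairing of identifier and symbol is that of the rule by which the genes were chosen, since the table itself carries no symbols: ENSRNOG00000003745 for Atf3, ENSRNOG00000026293 for Jun, ENSRNOG00000042838 for Junb, ENSRNOG00000008015 for Fos, ENSRNOG00000020552 for Fosl1 and ENSRNOG00000019422 for Egr1. The tissue, from rats of the S-D strain, held the supraoptic and paraventricular nuclei, home of the magnocellular neurons, which secrete vasopressin or oxytocin. The groups were Control, PEL at 1 d and PEL at 7 d after surgery, with 3 bulk RNA libraries in each and 13338433 to 21012998 counted reads per library. The 1 d libraries were all shallower (13338433 to 17294334) than the Control libraries (18948576 to 21012998), and the part of depth in the results was not tested beyond scaling by library size. In the published study PEL stands for electrical lesion of the pituitary stalk, through which the axons of these neurons reach the posterior pituitary. The labels give neither the treatment of the Control rats, nor sex or age, nor whether a library is 1 animal, so the spread behind each p-value is that of these libraries and may be partly technical. In bulk tissue, fewer cells of a type and less RNA per cell cannot be told apart. The labelled tissue could not be checked against its marker genes, because identifiers of such genes could not be matched to symbols.

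AP-1 is a family of dimeric transcription factors assembled from Jun, Fos and ATF proteins through a basic leucine zipper, a coiled coil that pairs the subunits and places their basic regions on DNA. Jun and Fos are immediate early genes, transcribed within minutes of a stimulus without new protein synthesis, and in the supraoptic and paraventricular nuclei Fos is widely used as a marker of neurons activated by osmotic stress. Atf3, a bZIP protein of the ATF/CREB family that can dimerise with Jun, is nearly silent in uninjured neurons and is a standard marker of axonal injury. Egr1 is a zinc finger factor of the immediate early class and is not an AP-1 subunit.

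Of the 6 genes, 3 had an entry in the RefSeq promoter table for the rat build GRCr8, namely Junb, Fosl1 and Egr1. The 250 bases before the annotated start were searched on both strands for the AP-1 site (TGANTCA with C or G at N), the cAMP response element (TGACGTCA), its core (TGACG, also contained in the full element), the Egr site (GCGNGGGCG with T or G at N), the TATA box (TATAAA) and the CArG box, the core of the serum response element that drives many immediate early genes. The sequences of Junb and Egr1 are shown because these 2 genes had the highest correlation of the pairs within groups, though it did not pass after adjustment, as described further on. Capitals mark every match in the Junb sequence, a core TGACG and a TATA box, and the CArG boxes alone in the Egr1 sequences. All are on the plus strand, 5′ to 3′.
Junb, chr19:40080876-40081125: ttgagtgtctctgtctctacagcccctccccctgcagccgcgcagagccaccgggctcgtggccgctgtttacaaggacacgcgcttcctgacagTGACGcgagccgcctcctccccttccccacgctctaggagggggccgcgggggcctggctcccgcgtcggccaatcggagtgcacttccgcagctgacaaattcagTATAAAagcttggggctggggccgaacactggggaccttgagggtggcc
Egr1, chr18:26736963-26736992: gtcggtccttCCATATTAGGgcttcctgct
Egr1, chr18:26736985-26737014: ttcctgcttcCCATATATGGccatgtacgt
The Egr1 CArG boxes began 105 and 83 bases before the start, and 1.5% of the 33469 promoters in the table held a match to this motif in the same window. The Junb window held no CArG box and 1 TGACG core, beginning 155 bases before the start, and was the only 1 of the 3 windows with a TATA box, which 12.9% of promoters held. Egr1 and Fosl1 each held 2 such cores, a motif found in 18.2% of promoters. The windows of all 3 genes held no match to the AP-1 site, the full cAMP response element or the Egr site, which 4.05%, 1.59% and 2.85% of promoters held. A match is a description of the letters and says nothing about binding in this tissue.

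Atf3 was the gene of the group with by far the highest fold change at both times after the lesion. Its level, in CPM (read count scaled to a common, TMM-normalised library size), was 2.67, 0.428 and 1.18 in Control replicates 1 to 3. At 1 d it was 29.8, 17.1 and 11.7 CPM, and at 7 d it was 21.3, 34.0 and 13.6 CPM. Every PEL library lay above every Control library, and the libraries of 1 d and 7 d overlapped.

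At 1 d the mean Atf3 level rose from 1.43 ± 1.14 to 19.6 ± 9.29 CPM (SD, n = 3 each), a fitted 13.7-fold increase (log2 fold change 3.77, SE 0.67, edgeR quasi-likelihood test with Benjamini-Hochberg adjustment over all genes, adjusted p = 0.0116). This was the 26th largest fitted rise of the 17345 genes tested. At 7 d the mean was 23.0 ± 10.3 CPM (SD, n = 3), 16.0-fold above Control (edgeR log2 fold change 4.0, SE 0.67, adjusted p = 0.0488) and the 11th largest fitted rise. By smallest edgeR p Atf3 ranked lower, 1017th of the 17345 genes at 1 d and 172nd at 7 d. Both comparisons use the same Control libraries. From 1 d to 7 d Atf3 differed by a log2 fold change of 0.23 (95% interval -1.08 to 1.54, edgeR adjusted p = 0.796), an interval that spans both a 2.11-fold fall and a 2.90-fold rise, so the data do not tell whether the transcript was still climbing or already declining.

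The base from which Atf3 rose was uneven. The Control libraries held 51, 8 and 25 Atf3 reads, a 6.24-fold range in CPM. The exact 95% counting interval was 37.97 to 67.1 reads for the first and 3.45 to 15.8 for the second, so the Control libraries differed by more than counting error, which is the only error these intervals cover. Over all genes too, replicate 1 differed most from the other Control libraries, as given with the processing. Summed over libraries, 84 Control reads stood against 970 at 1 d and 1199 at 7 d. The fitted log2 fold change moved with the Control replicate left out, and without replicate 1, the highest of the 3, it was 4.57 in place of 3.77 at 1 d and 4.79 in place of 4.0 at 7 d. At 1 d the value was lower without Control replicate 2 (3.35) or 1 d replicate 1 (3.33), and 3.33 to 4.57 was its range over the libraries left out. At 1 d Atf3 was called in each of 19 alternative analyses (adjusted p up to 0.0377). At 7 d its adjusted p was close to the threshold and the call was lost in 13 of the 19. It was lost without any 1 library other than Control replicate 1. The edgeR adjusted p was 0.112 and 0.162 without Control replicates 2 and 3. Leaving out a 1 d library (replicates 1 to 3) gave 0.0629, 0.0945 and 0.0633, and leaving out a 7 d library gave 0.115, 0.137 and 0.0678. The log2 fold change stayed between 3.58 and 4.79 throughout.

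**Figure D1:**
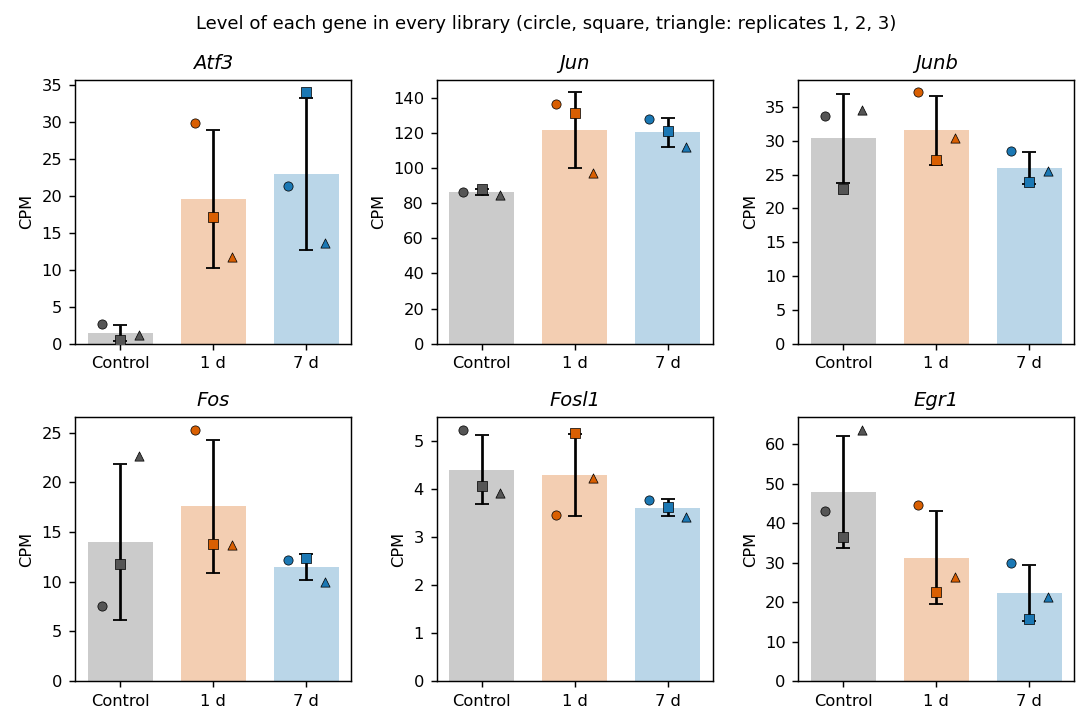
Level of the 6 genes in CPM (vertical axis, each panel with its own scale from 0) by group. Bars are means, error bars SD, n = 3, and points are libraries. Atf3 lay between 11.7 and 34.0 CPM in the 6 PEL libraries against 0.428 to 2.67 in Control, and Egr1 was the gene with the lowest mean at 7 d relative to Control.

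Jun encodes the AP-1 subunit c-Jun, the substrate of the JNK kinases that carry axonal damage signals to the cell body. Its Control libraries were close together, at 86.4, 88.1 and 84.6 CPM. The 1 d libraries stood at 137, 132 and 97.1 CPM and the 7 d libraries at 128, 121 and 112 CPM. As for Atf3, all 6 PEL libraries exceeded all 3 of Control, but by far less.

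At 1 d Jun rose from 86.4 ± 1.75 to 122 ± 21.5 CPM (SD, n = 3 each), a 1.41-fold increase (edgeR log2 fold change 0.50, SE 0.12, adjusted p = 0.0161). That call was lost without Control replicate 2 (edgeR adjusted p = 0.0521), 1 d replicate 1 (0.0680) or 1 d replicate 2 (0.0685). The median log2 fold change of all genes called higher at 1 d was 0.79. Among the 17345 genes tested, the Jun rise ranked 2845th by size. At 7 d the mean was 120 ± 8.19 CPM (SD, n = 3) and the fold change was of the same size, 1.39-fold (log2 fold change 0.48, SE 0.12), but it missed the threshold (edgeR adjusted p = 0.0918). It passed without 1 d replicate 3 (adjusted p = 0.025) and with the DESeq2 test (adjusted p = 0.0141). Between the times Jun differed by a log2 fold change of -0.02 (95% interval -0.27 to 0.24, edgeR adjusted p = 0.931), an interval from a 1.21-fold fall to a 1.18-fold rise. The sign of this value turned in 4 of 19 alternative analyses.

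Junb, whose product also pairs with Fos proteins and is generally a weaker transactivator than c-Jun, showed no such difference. It was at 33.7, 22.8 and 34.6 CPM in Control, 37.2, 27.1 and 30.4 CPM at 1 d and 28.5, 23.9 and 25.5 CPM at 7 d, with overlap between all groups. The log2 fold change from Control was 0.06 at 1 d (95% interval -0.32 to 0.43, edgeR adjusted p = 0.846) and -0.23 at 7 d (95% interval -0.60 to 0.15, adjusted p = 0.647). Without Control replicate 2 or 1 d replicate 1 the sign at 1 d turned, to -0.11 and -0.08.

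Fos, the classical marker of recent neuronal activation, varied more among the Control libraries than between groups. It measured 7.49, 11.8 and 22.7 CPM in Control, 25.3, 13.8 and 13.6 CPM at 1 d, and 12.2, 12.3 and 9.98 CPM at 7 d. Its highest libraries were 1 d replicate 1 and Control replicate 3, and every 7 d library lay below every 1 d library. No comparison was called: the log2 fold change was 0.33 at 1 d (95% interval -0.58 to 1.25, edgeR adjusted p = 0.596), -0.28 at 7 d (-1.21 to 0.64, adjusted p = 0.839) and -0.62 from 1 d to 7 d (-1.54 to 0.31, adjusted p = 0.293). The direction at 1 d rested on 1 d replicate 1, without which the value was -0.03, and that at 7 d on Control replicate 3, without which it was 0.26. At this spread a 2.37-fold rise of Fos at 1 d lay at the upper bound of the interval and could not be told from no change. No PEL library was taken before 1 d, so earlier changes of Fos or the other genes were not measured.

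Fosl1 encodes Fra-1, a Fos family member that lacks the transactivation domain of Fos. It had the fewest reads of the 6 genes in the PEL libraries, 60 to 82 per library at 1 d and 61 to 68 at 7 d, against 76 to 100 in Control. Its level was 5.24, 4.07 and 3.92 CPM in Control, 3.47, 5.17 and 4.24 CPM at 1 d, and 3.77, 3.63 and 3.42 CPM at 7 d. The 7 d libraries all lay just below the Control libraries, yet the difference was small and not called (log2 fold change -0.29, 95% interval -0.75 to 0.18, edgeR adjusted p = 0.640). At 1 d it was -0.04 (95% interval -0.50 to 0.43, adjusted p = 0.918), a sign that turned with library totals as the scaling (0.049) and without Control replicate 1 (0.10) or 1 d replicate 1 (0.09).

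Egr1 had the lowest fitted level relative to Control of the 6 genes at both times, without passing the edgeR test at either. It stood at 43.2, 36.6 and 63.8 CPM in Control, 44.7, 22.7 and 26.4 CPM at 1 d and 29.8, 15.7 and 21.2 CPM at 7 d. The 7 d libraries all lay below the Control libraries, whereas 1 d replicate 1 lay within the Control range. The mean was 47.9 ± 14.1 CPM in Control, 31.2 ± 11.8 at 1 d and 22.2 ± 7.14 at 7 d (SD, n = 3 each). The log2 fold change from Control by edgeR was -0.61 at 1 d (SE 0.34, adjusted p = 0.237) and -1.11 at 7 d (SE 0.34, 95% interval -1.90 to -0.31, edgeR adjusted p = 0.239), a 2.15-fold lower fitted level at 7 d. Without adjustment the 7 d value had an edgeR p of 0.0129, and the DESeq2 test called it (adjusted p = 0.00875). Over the 19 alternatives the 7 d value stayed negative, between -1.38 and -0.84, and DESeq2 was the only alternative that called it.

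**Figure D2:**
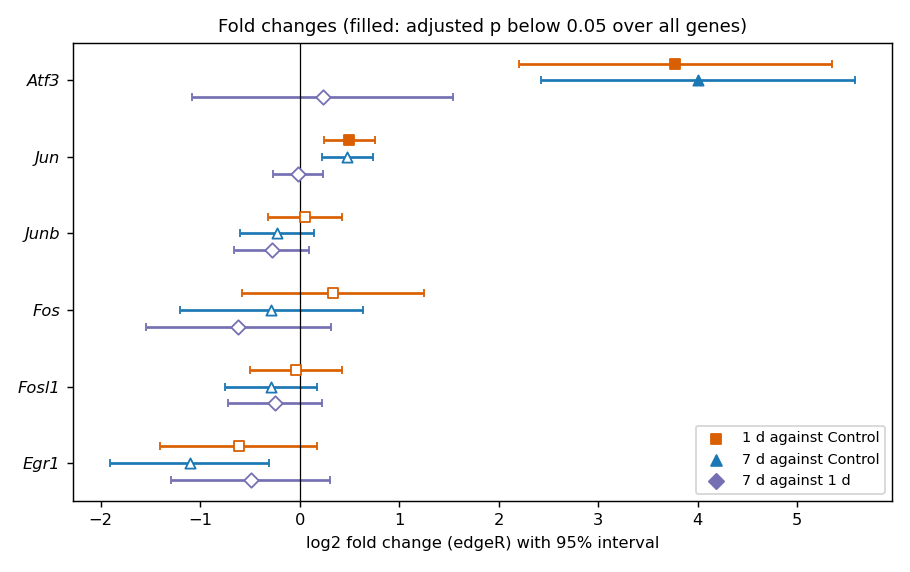
Log2 fold changes of the 6 genes (horizontal axis, edgeR fit) with 95% intervals for the 3 comparisons. Filled points had an adjusted p below 0.05 over all genes tested. The intervals of Atf3 against Control began at 2.20 and 2.43, those of Jun against Control lay between 0.22 and 0.75, and the intervals of Junb, Fos and Fosl1 all included 0.

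Counted together, 2 of the 6 genes (Atf3 and Jun) were called higher and 0 lower at 1 d by edgeR, where 11.4% of all genes tested were called higher and 9.01% lower. At 7 d 1 gene (Atf3) was called higher and 0 lower, against 0.842% and 0.179% of all genes. In the direct comparison of 7 d with 1 d 0 of the 6 were called by edgeR, 0 had an unadjusted p below 0.05 and DESeq2 called 0, although 29.2% of all genes were called. The median log2 fold change of the 6 genes was 0.19 at 1 d, -0.26 at 7 d and -0.27 between the times, beside -0.02, -0.01 and 0.03 over all genes tested. Groups of libraries that did not overlap were found for 2 genes at 1 d (39.7% of all genes), 4 at 7 d (16.2%) and 1, Fos, between the times (48.8%). The 6 genes were chosen with earlier results of these data known, so these counts are a description.

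**Figure D3:**
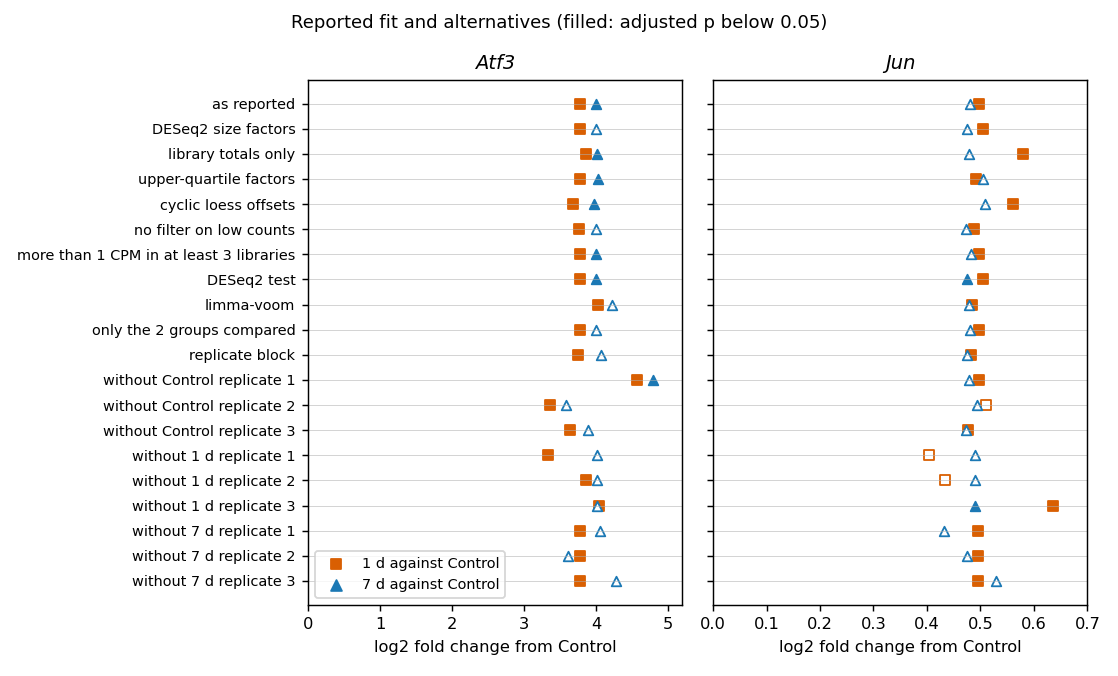
Log2 fold change from Control (horizontal axis) of Atf3 and Jun at 1 d and 7 d under the reported fit and 19 alternatives (rows). Filled points had an adjusted p below 0.05. Atf3 at 1 d was called in every row shown, and Atf3 at 7 d in 6 of the 19 alternatives. Over all 19 its 7 d log2 fold change was 3.58 to 4.79.

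The 6 genes differed widely in their spread within groups. The biological coefficient of variation estimated by edgeR was 0.523 for Atf3, 0.343 for Fos and 0.289 for Egr1, higher than in 96.6%, 90.0% and 83.9% of the genes tested. It was 0.158 for Junb, 0.203 for Fosl1 and 0.109 for Jun, with 0.189 as the common value over all genes. At 1 d Jun, with the smallest spread of the 6, was called at a 1.41-fold higher level, and Egr1 was not called at a 1.53-fold lower one. At 7 d neither was called.

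Deviations of each library from its group mean were compared between the genes, and none of the 15 pairs passed after adjustment. The smallest p that permutation within groups of 3 can give is 0.00463. After adjustment over 15 pairs a single pair could therefore not pass alone, whatever its r, and not passing says little about a relation. Egr1 and Junb had the same highest library and the same lowest library in all 3 groups: Control replicate 3, 1 d replicate 1 and 7 d replicate 1 were highest in both, and replicate 2 of each group was lowest in both. Their deviations in log2 CPM correlated with r = 0.82 (exact permutation within groups, p = 0.0139, 0.208 after Benjamini-Hochberg adjustment over the 15 pairs of the 6 genes). Without the 2 libraries farthest from the median of the Junb deviations r was 0.82. Over the 9 libraries without regard to group, Pearson's r was 0.71 (exact permutation p = 0.035, adjusted 0.263) and Spearman's rho 0.72 (exact permutation p = 0.0369, adjusted 0.277), and r was 0.95 without the 2 libraries farthest from the Junb median. The relation had the highest r of the 15 pairs within groups and did not pass after adjustment.

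The deviations of Egr1 and Fos shared their highest library in 2 of the 3 groups and their lowest in 0, with r = 0.65 within groups (exact permutation p = 0.111, adjusted 0.660). This relation rested on few libraries, since r was 0.13 without the 2 libraries farthest from the median of the Fos deviations. The pair with the lowest r was Fos and Fosl1 (-0.76 within groups, exact permutation p = 0.153, adjusted 0.660), and Atf3 and Junb had r = 0.65 (exact permutation p = 0.208, adjusted 0.660). Without the 2 libraries farthest from the median of the first gene's deviations these r were -0.57 and 0.30. Atf3 and Jun, the 2 genes called at 1 d, had r = 0.40 within groups (exact permutation p = 0.264, adjusted 0.660). For Atf3 and Jun r was 0.71 without the 2 libraries farthest from the median of the Atf3 deviations. No correlation across groups is given for them, because their Control libraries form a separate cluster in both.

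**Figure D4:**
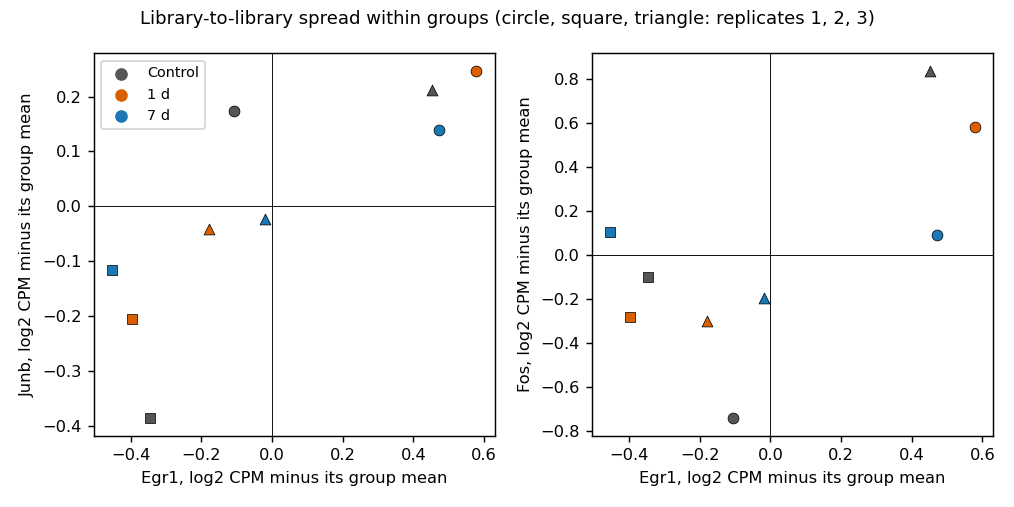
Deviation of each library from its group mean in log2 CPM, Egr1 on the horizontal axis and Junb (left) or Fos (right) on the vertical axis, 1 point per library. Replicate 2 was lowest for both Egr1 and Junb in each group. Within-group r was 0.82 with Junb (adjusted p = 0.208 by exact permutation) and 0.65 with Fos (adjusted p = 0.660), neither past the threshold. A single pair could not pass it alone with this permutation.

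Among 12324 other genes with a mean of at least 5 CPM, the one whose log2 CPM followed Atf3 most closely over the 9 libraries was ENSRNOG00000017020 (Pearson's r = 0.973, a description that includes the difference between groups). Its mean was 12.3 CPM in Control, 19.7 at 1 d and 20.1 at 7 d (log2 fold changes 0.68 and 0.71), a much smaller fold than that of Atf3. It was picked for its likeness to Atf3 over these same libraries, so its direction is a description with no test. The gene most like Egr1 was ENSRNOG00000014232 (r = 0.921), at 11.7, 11.3 and 9.33 CPM, which was also the third most like Junb (r = 0.863).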

How the data were processed

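Bulk RNA sequencing measured 9 libraries in 3 groups, set by the sample titles. The authors deposited raw counts of reads per gene, not normalized, in 1 table. The submitters' processing notes list DESeq2 1.16.1, featureCounts 1.5.0-p3 and HISAT2 2.0.5, with no role stated. The sources used here name no genome build, annotation or strand setting, so reads of overlapping or antisense genes may not have been told apart. The rat gene table used here held an Ensembl ID in 0 of 47357 rows, so the pathway and cell type marker lists could not be matched and were not tested.

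Genes were filtered with filterByExpr, scaled by TMM and tested with edgeR 4.0.16 (glmQLFit, robust, glmQLFTest, R 4.3.3) in a single model of the 9 libraries with no term but group. A gene was called at a two-sided Benjamini-Hochberg adjusted p below 0.05 over 17345 genes. Standard errors are the absolute log2 fold change over the root of the F statistic, and 95% intervals use the fit's degrees of freedom. Log2 CPM used a prior count of 2. Alternatives were other scalings, filters, DESeq2 1.42.0, limma-voom (limma 3.58.1), fewer libraries and a replicate block. The fitting code was tested on simulated counts with the same spread for all genes. That spread was below those of Atf3, Fos and Egr1. Replicates differed beyond sampling noise (chi-square per degree of freedom 6.80 to 38.1). The highest values, 36.9 and 38.1, were those of Control replicate 1 against Control replicates 2 and 3, which gave 18.3 between them. All 6 genes were to be named, with the gene most like each of at most 2 of them by ID, here Atf3 and Egr1. Members and lists were chosen with earlier results of these data known.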

Additional observations from a re-analysis of the deposited data

How the results depend on the processing

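Over 19 alternatives, Atf3 at 1 d kept its call and direction, and no member was called between 7 d and 1 d. The number of members called at 7 d, 1 in the reported analysis, was 0 with DESeq2 size factors, with no filter on low counts, with limma-voom, in a fit of only the 2 groups compared and with the replicate block, and 3 (Atf3, Jun and Egr1) with the DESeq2 test. In those settings the Atf3 log2 fold change at 7 d was 4.0 (adjusted p = 0.0528), 3.99 (0.0921), 4.22 (0.0621), 4.0 (0.109) and 4.07 (0.0738), so the adjusted p crossed the threshold while the fold hardly moved. The DESeq2 test gave 0.48 for Jun and -1.11 for Egr1 at 7 d. The number of all genes called was 3540 at 1 d and 177 at 7 d, against 2066 and 28 in a fit of only the 2 groups, and DESeq2 called 523 at 7 d. Small uncalled values changed sign: Fosl1 at 1 d with library totals (0.049) and Jun from 1 d to 7 d with upper-quartile factors (0.013). Library totals moved the split of all calls at 1 d from 1977 higher and 1563 lower to 2471 and 856, and from 1 d to 7 d from 2320 and 2749 to 1456 and 3294. The cause of these shifts was not tested.

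Leaving out each library in turn gave 1 to 2 members called at 1 d and 0 to 1 at 7 d, and 1440 to 4595, 7 to 739 and 3071 to 6070 genes called in all at 1 d, at 7 d and between the times. At 7 d the 739 came without Control replicate 1 and the 7 without Control replicate 2. Log2 fold changes ranged at 1 d from 3.33 to 4.57 for Atf3, 0.40 to 0.64 for Jun, -0.11 to 0.15 for Junb, -0.029 to 0.87 for Fos, -0.20 to 0.10 for Fosl1 and -0.97 to -0.36 for Egr1. At 7 d they ranged from 3.58 to 4.79 for Atf3, 0.43 to 0.53 for Jun and -0.59 to 0.26 for Fos, and between the times from -0.16 to 0.68 for Atf3, -0.15 to 0.086 for Jun, -0.76 to -0.24 for Fos and -0.76 to -0.13 for Egr1. Across all genes the replicate numbers of the titles showed no pairing. Same-numbered libraries of different groups had deviations correlated at -0.15 to 0.04, and 0 of 9 libraries matched best with their own number in both other groups. The highest correlation, 0.187, was between Control replicate 1 and 1 d replicate 3. Whether libraries shared a batch was not tested. With replicate number as a block 74 genes were called at 7 d in place of 177, and no member changed its call at 1 d or between the times.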

Other observations

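The balance between the genes within a library depends little on library scaling, and gene length cancels in its change. It was compared between groups as a description with no test. The log2 ratio of Jun to Egr1 was 0.89 ± 0.44 in Control, 2.01 ± 0.47 at 1 d and 2.48 ± 0.43 at 7 d (SD, n = 3 each), with all PEL libraries above all Control libraries. The ratio of Junb to Egr1 moved in the same direction, by 0.71 at 1 d and 0.91 at 7 d, also without overlap. The ratio of Fos to Egr1 was higher by 1.05 at 1 d and 0.97 at 7 d, again without overlap, although neither gene was called on its own. Neither Fos nor Egr1 passed the test at either time, and the difference between them was not tested. Libraries that do not overlap are common for these ratios: 9 of the 15 pairs of the 6 genes had none overlapping with Control at 1 d and 11 at 7 d. Every pair with Atf3 was among them at both times, and the share over pairs of other genes was not computed.

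Within the AP-1 family, the ratio of Jun to Fosl1 was 4.27 ± 0.22 in Control and 5.02 ± 0.03 at 7 d (SD, n = 3 each), without overlap. The ratio of Jun to Fos was 3.38 ± 0.09 at 7 d against 2.83 ± 0.41 at 1 d, also without overlap, while both overlapped the 2.76 ± 0.81 of Control. Between 1 d and 7 d the libraries did not overlap for 2 of the 15 pairs. The share over pairs of other genes was not computed here either, and for single genes it was 48.8%. The ratio of Junb to Fosl1 differed by 0.11 or less between groups. These ratios share Jun, Egr1 or Fosl1 with each other and are not independent.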
